A study of Mus musculus with 28 samples.

Results

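The 8 genes described here mark early lymphoid progenitors and the recombination of antigen receptor genes: Dntt, Rag1, Rag2, Ptcra, Il7r, Tcf7, Ebf1 and Sox4. They were taken by name from the 24421 genes counted in each library, all 8 were present in the count data, and 7 of them, all but Rag2, passed the filter on low counts. RNA was sequenced from dendritic cells sorted from the spleens of untreated C57Bl/6 mice aged 6 to 12 weeks, in 28 libraries of 4 groups. The first group, pDC_TG, held 4 libraries of plasmacytoid dendritic cells (pDC) of the genotype Irf8fl/fl Itgax-cre. Its Cre is driven from regulatory sequence of the CD11c gene and so acts in cells that use it. The others were pDC_WT (8 libraries), cDC1_WT (8 libraries of CD24+ conventional dendritic cells, cDC1) and cDC2_WT (8 libraries of CD172a+ conventional dendritic cells, cDC2), all from Irf8fl/fl mice without Cre. Every group thus carried loxP-flanked Irf8, and no Cre control without loxP sites was analysed here. The study asked what the transcription factor IRF8 does in dendritic cells that have already matured.

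Lymphoid progenitors assemble antigen receptor genes by V(D)J recombination: RAG1 and RAG2 cut the DNA, and terminal deoxynucleotidyl transferase, the product of Dntt, adds untemplated nucleotides at the joints. Mouse pDC can arise from myeloid and from lymphoid progenitors, carry transcripts of several lymphoid genes, and depend on the E protein E2-2 (Tcf4), which binds E-box DNA. IRF8 is a transcription factor of the dendritic cell and monocyte lineages and is held at a high level in pDC and cDC1.

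Irf8 itself averaged 1461 ± 257 CPM (read counts scaled to library size) in pDC_TG (SD, n = 4) and 6145 ± 459 CPM in pDC_WT (n = 8), so the level in pDC_TG was 23.8% of that in pDC_WT (log2 fold change (log2FC) -2.07, standard error (SE) 0.13, adjusted p = 4.43e-13). The counts cover the whole gene and the deleted part is not given in the labels, so this value does not measure the share of cells with a deleted gene. All 11 pDC markers were higher in pDC_WT than in each of cDC1_WT and cDC2_WT, as were 30.3% and 28.3% of all genes tested. In pDC_TG against pDC_WT 1 of them was higher, 5 were lower and 5 did not pass, beside 7.72% of all genes higher and 7.04% lower. Gene counts ran from 17299285 to 30787679 per library. A gene with 3 counts over all libraries of a group, the floor used here, would stand at 0.0263 CPM in pDC_TG, 0.0146 in pDC_WT, 0.0158 in cDC1_WT and 0.0156 in cDC2_WT, which covers counting error only. In bulk RNA, fewer cells of a type and less RNA per cell cannot be told apart.

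The DNA just before the start of 4 of the genes is shown because Dntt and Sox4 were the members with high levels in both pDC groups that were higher in pDC_TG, whereas Rag1 and Ptcra were low members found in pDC and hardly or not in cDC. Each sequence is the 250 bases before the RefSeq start on GRCm38.p6, read 5′ to 3′ on the strand of the gene, with E-boxes of the form CAGCTG or CAGGTG (either strand) in capitals.
Dntt, chr19:41029025-41029274, plus strand: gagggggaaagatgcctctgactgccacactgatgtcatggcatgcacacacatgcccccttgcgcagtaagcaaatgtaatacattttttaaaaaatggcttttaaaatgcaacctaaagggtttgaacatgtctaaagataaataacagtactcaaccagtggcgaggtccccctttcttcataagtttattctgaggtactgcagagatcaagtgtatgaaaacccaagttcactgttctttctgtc
Rag1, chr2:101649533-101649782, minus strand: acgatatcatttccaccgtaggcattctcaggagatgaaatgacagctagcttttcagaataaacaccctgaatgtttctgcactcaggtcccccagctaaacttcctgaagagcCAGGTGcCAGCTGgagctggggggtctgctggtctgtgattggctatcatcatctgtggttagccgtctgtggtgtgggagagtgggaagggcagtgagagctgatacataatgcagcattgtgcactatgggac
Ptcra, chr17:46763713-46763962, minus strand: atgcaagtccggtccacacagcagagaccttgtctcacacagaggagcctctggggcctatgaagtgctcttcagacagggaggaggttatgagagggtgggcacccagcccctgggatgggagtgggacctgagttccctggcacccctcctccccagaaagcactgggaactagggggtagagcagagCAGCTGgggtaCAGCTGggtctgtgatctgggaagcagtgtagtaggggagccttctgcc
Sox4, chr13:28953700-28953949, minus strand: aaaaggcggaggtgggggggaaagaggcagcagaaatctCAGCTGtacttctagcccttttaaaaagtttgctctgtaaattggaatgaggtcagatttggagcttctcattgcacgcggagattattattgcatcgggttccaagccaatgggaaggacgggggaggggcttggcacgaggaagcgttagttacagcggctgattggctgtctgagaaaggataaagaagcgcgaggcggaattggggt
The Dntt window held no such E-box. That of Rag1 held 2, with first bases at -135 and -128 (the base just before the start is -1), that of Ptcra held 2, at -60 and -49, and that of Sox4 held 1, at -211. The last 14 bases of the Sox4 window lie in an annotated exon. Such an E-box was present in 9113 of 32851 RefSeq promoter windows of 250 bases (27.7%). None of the 4 windows held an IRF repeat (GAAA and GAAA with 2 bases of any kind between, either strand, in 2.98% of all windows), an ETS-IRF composite (GGAA and GAAA spaced alike, 2.30%) or a TCF/LEF motif (CTTTGAA or CTTTGAT, 7.48%). A match is a description of the letters and not a binding site, and the absence of one says only that these letters are not in this window.

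Between pDC_TG and pDC_WT, 3 of the 7 tested members rose (Dntt, Tcf7 and Sox4), none fell, and Rag1, Ptcra, Il7r and Ebf1 did not pass at an adjusted p of 0.05. Of all 13159 genes tested, 7.72% were called higher and 7.04% lower. In these same 3 genes every pDC_TG library lay above every pDC_WT library, as in 4.9% of the genes tested, and 4.81% of genes lay wholly below. The median log2FC was 1.25 over the 7 members and 0 over all genes tested. An exact two-sided permutation test over the 495 splits of the 12 pDC libraries gave p = 0.00202 for each of the 3, the smallest value these libraries allow. This value restates the lack of overlap rather than adding to it, and is not adjusted over genes.

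**Figure D1:**
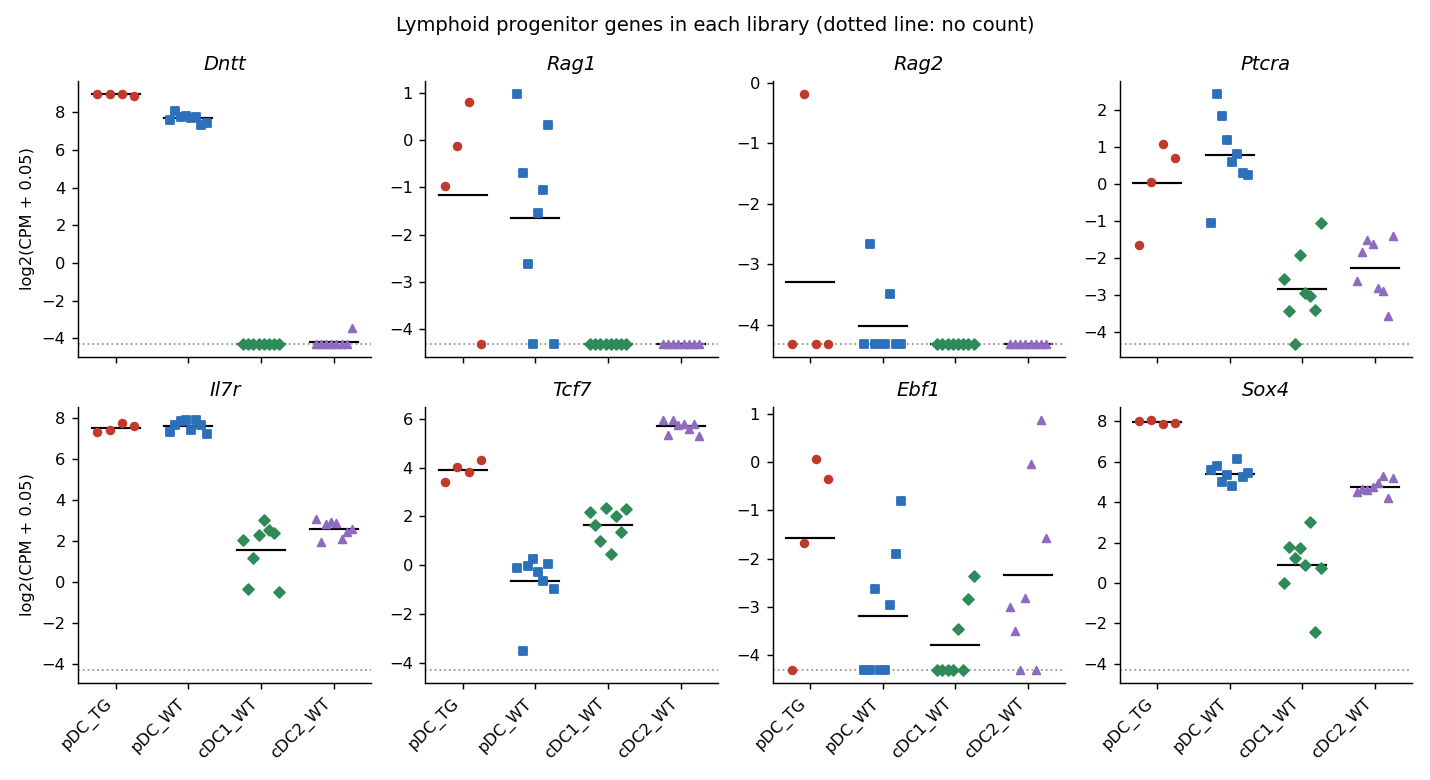
Level of each of the 8 genes in each library as log2 of CPM plus a small constant (y axis, log scale), by group (x axis); points are libraries, bars are group means on the log scale, and the dotted line marks a library with no count. The 4 pDC_TG points of Dntt, Tcf7 and Sox4 sit above all 8 pDC_WT points, and those of Il7r lie among them.

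The plot of levels by library shows 3 kinds of member: Dntt and Il7r were high in both pDC groups and at or near 0 or low in cDC, Tcf7 and Sox4 differed between all or most groups, and Rag1, Rag2, Ptcra and Ebf1 stayed within a few CPM everywhere. Per kilobase of annotated exon, the mean levels in pDC_TG were 216 CPM for Dntt, 52.7 for Sox4, 40.0 for Il7r, 5.83 for Tcf7, 0.951 for Ptcra, 0.115 for Rag1, 0.0608 for Rag2 and 0.0512 for Ebf1. In pDC_WT the same quantity was 90.7 CPM per kilobase for Dntt, 43.0 for Il7r, 9.26 for Sox4, 1.66 for Ptcra, 0.275 for Tcf7, 0.0858 for Rag1, 0.0119 for Ebf1 and 0.00533 for Rag2. Sox4 thus stood above Il7r in pDC_TG and below it in pDC_WT, and Tcf7 stood above Ptcra in pDC_TG and below it in pDC_WT.

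Dntt (chromosome 19, 41029275 to 41059525, plus strand, GRCm38; all 8 genes are annotated as protein coding) was the most abundant member per length in both pDC groups. Its level was 494, 510, 508 and 471 CPM in the 4 pDC_TG libraries, against 157 to 273 CPM in pDC_WT, with a median of 210. The lowest pDC_TG library stood well above the highest pDC_WT library. The fold was 2.39, with a 95% interval of 2.01 to 2.82 (log2FC 1.25, SE 0.12, adjusted p = 4.31e-08). The pDC_TG libraries were close to one another, with a coefficient of variation of 3.64%, and those of pDC_WT had one of 16.9%. No cDC1_WT library had a count, and 1 of the 8 cDC2_WT libraries had 1 count. The level was therefore at least 31325-fold higher in pDC_TG than the floor of cDC1_WT, and at least 13119-fold higher in pDC_WT. Against cDC2_WT the ratio was 94906 in pDC_TG (17033 to 3748640) and 39747 in pDC_WT (7133 to 1569970), with intervals that cover counting error only.

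Rag1 and Rag2, which encode the subunits of the recombinase, were near the limit of detection. They lie on opposite strands of chromosome 2, Rag1 at 101638282 to 101649501 and Rag2 at 101624718 to 101632529, with 5752 bases between them. Another gene, B230118H07Rik, overlaps 1.21% of the exon bases of Rag1 and 6.08% of those of Rag2, and the library kit does not mark strand. Rag1 had 0.461, 0.870, 1.70 and 0 CPM in the pDC_TG libraries, against 0 to 1.93 CPM in pDC_WT, with a median of 0.361. Libraries of both groups were at 0, and the ranges overlapped throughout. The log2FC was 0.42 with an SE of 1.37 and an adjusted p of 0.922, so that a difference was not detectable at this depth. It turned to -0.35 without pDC_TG replicate 3 and was 1.01 without pDC_WT replicate 1.

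No cDC library had a Rag1 count, whereas 3 of 4 pDC_TG and 6 of 8 pDC_WT libraries had one. Over the floor, Rag1 was at least 47.8-fold higher in pDC_TG than in cDC1_WT (adjusted p = 0.00166) and at least 34.1-fold higher in pDC_WT than in cDC1_WT (adjusted p = 0.00146). Rag1 passed the filter on low counts through its pDC libraries alone. The pDC libraries at 0 overlapped the cDC libraries, which further limits its calls against cDC. Rag2 had 22 counts in 1 of the 4 pDC_TG libraries (0.832 CPM in replicate 2) and 0 in the other 3, against 4 counts in 2 of the 8 pDC_WT libraries and none in cDC. It was not tested across genes, and an exact permutation test of pDC_TG against pDC_WT gave p = 0.333. Counts of Rag1 thus lay in most pDC libraries and those of Rag2 in few, each at a small part of the level of Dntt per length. Bulk RNA does not show whether they came from the same cells as Dntt.

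Ptcra (chromosome 17, 46755663 to 46763712, minus strand) encodes the pre-T cell receptor alpha chain, which pairs with the T cell receptor beta chain in thymocytes; its human counterpart is a known pDC transcript. Its level was 0.269, 0.984, 2.06 and 1.56 CPM in pDC_TG, against 0.430 to 5.38 CPM in pDC_WT, with a median of 1.59. The groups overlapped, and the largest value was that of a pDC_WT library. The log2FC of -0.80 (SE 0.80, adjusted p = 0.624) came with a 95% interval of the fold of 0.184 to 1.79. Every pDC library of both groups had Ptcra counts, whereas cDC1_WT averaged 0.126 ± 0.139 CPM and cDC2_WT 0.183 ± 0.114 CPM (n = 8 each).

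Il7r (chromosome 15, 9505788 to 9530176, minus strand) encodes the alpha chain of the interleukin-7 receptor, a survival receptor of lymphoid progenitors and T cells. It had 159, 173, 220 and 194 CPM in pDC_TG, against 148 to 245 CPM in pDC_WT, with a median of 202. All 4 pDC_TG libraries lay within the range of pDC_WT. The fold was 0.930, with a 95% interval of 0.576 to 1.501 and an adjusted p of 0.920, and folds within that interval cannot be told from no change with these libraries.

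Tcf7 (chromosome 11, 52252371 to 52283014, minus strand) encodes TCF-1, a Notch-induced transcription factor of early T cell and innate lymphoid development. Its level was 10.7, 16.3, 14.2 and 20.0 CPM in pDC_TG, against 0.0356 to 1.14 CPM in pDC_WT, with a median of 0.818. No library overlapped, and the lowest pDC_TG library held more than any pDC_WT library. The fold was 21.1, with a 95% interval of 12.9 to 34.7 (log2FC 4.40, SE 0.35, adjusted p = 9.67e-11), which was the largest fold among the members tested. In the conventional cells the level was 1.33 to 5.00 CPM in cDC1_WT and 39.5 to 62.8 CPM in cDC2_WT, so the order was cDC2_WT, pDC_TG, cDC1_WT and pDC_WT, with no overlap between any 2 of these groups.

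The pDC_TG level of Tcf7 was 29.2% of that of cDC2_WT (log2FC -1.77, SE 0.36, adjusted p = 0.000134). Other cDC2 markers moved in pDC_TG against pDC_WT. Of 9, 5 were higher, 2 were lower and 2 did not pass, beside 7.72% of all genes higher and 7.04% lower. The 9 markers summed to 2075 to 2324 CPM in pDC_TG and 1541 to 2145 CPM in pDC_WT, against 4169 to 4922 CPM in cDC2_WT. Itgam, the CD11b gene, averaged 31.9 CPM in pDC_TG, 0.401 CPM in pDC_WT and 155 CPM in cDC2_WT. Tmem176b averaged 242 CPM in pDC_TG, 38.4 CPM in pDC_WT and 1195 CPM in cDC2_WT, and Tmem176a rose with it. Ltb, which encodes lymphotoxin beta, averaged 578 CPM in pDC_TG, 145 CPM in pDC_WT and 588 CPM in cDC2_WT. The fifth, the transcription factor gene Irf4, averaged 434 CPM in pDC_TG, 146 CPM in pDC_WT and 221 CPM in cDC2_WT. The lower markers were Clec10a, at 35.2 CPM in pDC_TG, 251 CPM in pDC_WT and 22.4 CPM in cDC2_WT, and Cd4, at 470 CPM in pDC_TG, 777 CPM in pDC_WT and 252 CPM in cDC2_WT. Sirpa and the lectin gene Clec4a4 did not pass, at 299.6 and 0.0269 CPM in pDC_TG, 425 and 0.0837 CPM in pDC_WT, and 1233 and 218 CPM in cDC2_WT. Whether cDC2 transcripts have a part in the rise of Tcf7 was not tested.

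Ebf1 (chromosome 11, 44617317 to 45008091, plus strand) encodes a transcription factor that specifies the B cell lineage. It had 0, 0.265, 0.999 and 0.734 CPM in pDC_TG, against 0 to 0.526 CPM in pDC_WT, with a median of 0.0391. The groups overlapped at 0 and above, with 60 counts over 4 pDC_TG libraries and 26 over 8 pDC_WT libraries. The log2FC of 2.04 had an SE of 1.33 and an adjusted p of 0.375, and was 2.95 (adjusted p = 0.171) without pDC_WT replicate 8. In cDC2_WT, Ebf1 averaged 0.402 ± 0.643 CPM, with 83 counts in 6 of 8 libraries, so counts of this gene were also found outside pDC.

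Sox4 (chromosome 13, 28948919 to 28953713, minus strand) encodes a high mobility group transcription factor of lymphoid progenitors, in which it is needed for early B cell development. It had 261, 272, 234 and 245 CPM in pDC_TG, against 27.9 to 71.5 CPM in pDC_WT, with a median of 41.5. The groups were far apart, and the highest pDC_WT library stood below each pDC_TG library. The fold was 5.69, with a 95% interval of 3.37 to 9.62 (log2FC 2.51, SE 0.37, adjusted p = 1.1e-05). In conventional cells the level was 0.134 to 7.98 CPM in cDC1_WT and 18.3 to 39.0 CPM in cDC2_WT. The order was pDC_TG, pDC_WT, cDC2_WT and cDC1_WT, in which pDC_WT and cDC2_WT overlapped. An antisense gene, Gm26735, overlaps 54.6% of the Sox4 exon bases and is not among the genes counted, so reads from it cannot be told from reads of Sox4 without strand.

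**Figure D2:**
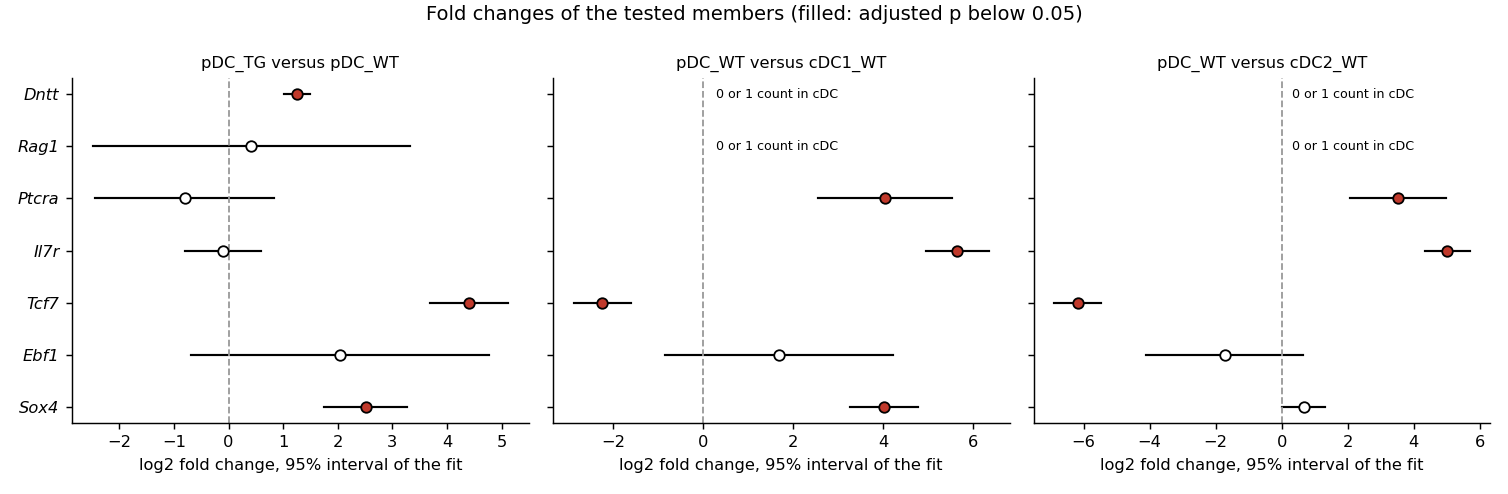
Log2 fold change (x axis, log2 scale) of the 7 tested genes (y axis) in 3 comparisons, with the 95% interval of the fit as a line; filled points have an adjusted p below 0.05. Dntt, Tcf7 and Sox4 are filled and right of 0 in pDC_TG versus pDC_WT, and Tcf7 is left of 0 in both comparisons of pDC_WT with cDC; genes with 0 or 1 count in a cDC group have no point.

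Set against the conventional cells, pDC_WT had most of these transcripts at higher levels, with Tcf7 as the one tested member that was lower. Against cDC1_WT, 5 of 7 tested members were higher (Dntt, Rag1, Ptcra, Il7r and Sox4), 1 was lower (Tcf7) and Ebf1 did not pass, beside 30.3% of all genes called higher and 30.6% lower. Libraries did not overlap in Dntt, Il7r and Sox4 (higher) and in Tcf7 (lower), as in 14.3% of all genes higher and 16% lower. Against cDC2_WT, 4 were higher (Dntt, Rag1, Ptcra and Il7r), 1 was lower (Tcf7) and 2 did not pass (Ebf1 and Sox4), beside 28.3% of all genes higher and 28.8% lower. Here the libraries of Dntt, Ptcra and Il7r (higher) and of Tcf7 (lower) did not overlap, as in 13.7% of all genes higher and 15.6% lower. The median log2FC of the members was 4.04 against cDC1_WT and 3.51 against cDC2_WT, where that of all genes tested was 0.03 and 0.01. Dntt, Rag1 and Ptcra passed the filter on low counts through their pDC libraries. Their direction against cDC was thus largely set by that filter, which limits these counts and medians.

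Il7r was 50.3-fold higher in pDC_WT than in cDC1_WT (adjusted p = 1.12e-14) and 32.3-fold higher than in cDC2_WT (adjusted p = 8.59e-14). The cDC libraries held 0.672 to 8.08 CPM in cDC1_WT and 3.89 to 8.40 CPM in cDC2_WT, all far below every pDC library. Ptcra was 16.4-fold higher than in cDC1_WT (adjusted p = 1.92e-05) and 11.4-fold higher than in cDC2_WT (adjusted p = 9.28e-05). Tcf7 in pDC_WT was at 21.2% of its cDC1_WT level (adjusted p = 3.28e-07) and at 1.38% of its cDC2_WT level (adjusted p = 8.19e-16). Sox4 was 16.2-fold higher in pDC_WT than in cDC1_WT (adjusted p = 1.18e-10), and against cDC2_WT the fold of 1.58 did not pass (95% interval 1.01 to 2.49, adjusted p = 0.0760). It passed when only these 2 groups were fitted (adjusted p = 0.00474), under total-count scaling (adjusted p = 0.0287), with WT replicates 1 to 4 alone (adjusted p = 0.00788) and with the replicate number as a block (adjusted p = 0.0356). The labels give the 3 WT groups the same mouse numbers, and do not say whether a number is the same mouse.

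In pDC_TG the balance against the conventional cells was different for Tcf7 and Sox4. Against cDC1_WT, all 7 tested members were higher, with 27.1% of all genes called higher and 26.6% lower. Of these, Dntt, Il7r, Tcf7 and Sox4 did not overlap, as in 18.3% of all genes (18.1% wholly lower). Ebf1, the weakest of these calls (log2FC 3.73, SE 1.41, adjusted p = 0.0266), did not pass without pDC_TG replicate 3 (adjusted p = 0.0841) or replicate 4 (adjusted p = 0.0571). Tcf7 was 4.49-fold and Sox4 92.4-fold higher in pDC_TG than in cDC1_WT (adjusted p = 1.26e-06 and 9.13e-14). Against cDC2_WT, 5 were higher (Dntt, Rag1, Ptcra, Il7r and Sox4), Tcf7 was lower and Ebf1 did not pass, beside 24.3% of all genes higher and 23.9% lower. Dntt, Il7r and Sox4 lay wholly above and Tcf7 wholly below cDC2_WT, as did 16.2% and 17% of all genes. Sox4 was 9.02-fold higher in pDC_TG than in cDC2_WT (adjusted p = 3.21e-08). These comparisons share the cDC libraries with those of pDC_WT, and the same limit from the filter holds for Dntt, Rag1 and Ptcra.

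The conventional groups also differed from each other. Of the 7 tested members none was higher in cDC1_WT than in cDC2_WT, 3 were lower and 4 did not pass, beside 22.8% of all genes called higher and 23.4% lower. Tcf7 in cDC1_WT was at 6.50% and Sox4 at 9.63% of the cDC2_WT level (adjusted p = 3.4e-12 and 6.09e-09), with no overlap of libraries in either gene, as in 10.8% of all genes lower and 10.4% higher. Il7r did not pass in this fit (adjusted p = 0.0889), and did with the replicate block (adjusted p = 0.0497). Ebf1 was the third lower gene, with an adjusted p of 0.0297 that rested on 6 counts in cDC1_WT and 83 in cDC2_WT. Without cDC2_WT replicate 5 or 7 its adjusted p was 0.0523 or 0.115.

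Genes of the same processes were examined as lists in pDC_TG versus pDC_WT. In that comparison 7.72% of all genes tested were called higher and 7.04% lower, with a median log2FC of 0. Among 13 genes of V(D)J recombination and end joining, 3 were higher, 1 was lower and 9 did not pass, with a median log2FC of -0.01; against a 1.5-fold change 1 was higher. Hmgb2, a DNA-bending protein that assists RAG cutting, averaged 111 CPM in pDC_TG and 64.3 CPM in pDC_WT (log2FC 0.78, adjusted p = 2.9e-05). Xrcc6, which encodes the Ku70 end-binding protein, averaged 96.1 CPM in pDC_TG and 63.5 CPM in pDC_WT (log2FC 0.60, adjusted p = 0.00058). Poll, a DNA polymerase gene related to Dntt, averaged 0.529 CPM in pDC_TG and had no count in pDC_WT, which makes it at least 35.0-fold higher (adjusted p = 1.27e-06). Its pDC_TG libraries ran from 0 to 0.908 CPM, and it averaged 9.24 CPM in cDC1_WT and 14.1 CPM in cDC2_WT. The lower gene was Atm, the DNA damage kinase, at 13.4 CPM in pDC_TG and 21.98 CPM in pDC_WT (log2FC -0.71, adjusted p = 0.0295). No gene of this list was lower once pDC_TG replicate 2, 3 or 4 was left out, nor once pDC_WT replicate 5 was.

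Of 12 genes of interleukin-7 receptor signalling, 4 were higher, none was lower and 8 did not pass, with a median log2FC of 0.22. With WT replicates 1 to 4 alone 2 were higher, and 1 was against a 1.5-fold change. Bcl2, the survival gene that this receptor maintains in lymphocytes, averaged 22.6 CPM in pDC_TG and 7.16 CPM in pDC_WT (log2FC 1.65, adjusted p = 1.12e-05), without overlap of the libraries. Il2rg, which encodes the common gamma chain that pairs with the Il7r product, averaged 498 CPM in pDC_TG and 368 CPM in pDC_WT (log2FC 0.44, adjusted p = 0.00281). Pik3cd and the kinase gene Pim1 had log2FC of 0.54 and 0.57 (adjusted p = 0.006 and 0.0125). The receptor chain Il7r, as described above, lay within the range of pDC_WT in all pDC_TG libraries.

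In the early B lineage list, 14 of 18 genes were tested, 2 were higher, 1 was lower and 11 did not pass, with a median log2FC of 0.13. Blk, a Src family kinase of B cells and pDC, averaged 119 CPM in pDC_TG and 7.52 CPM in pDC_WT (log2FC 3.99, adjusted p = 9.55e-13). Its pDC_TG libraries ran from 111 to 132 CPM and those of pDC_WT from 4.84 to 9.41 CPM. Foxo1, a transcription factor that drives Rag expression in B cell progenitors, averaged 154 CPM in pDC_TG and 72.1 CPM in pDC_WT (log2FC 1.10, adjusted p = 2.54e-07). Cd24a was lower, at 18.9 CPM in pDC_TG and 37.9 CPM in pDC_WT (log2FC -1.002, adjusted p = 0.00621). Pax5, which commits cells to the B lineage, averaged 0.0666 CPM in pDC_TG and 0.00770 CPM in pDC_WT, and the surrogate light chain gene Vpreb1 averaged 0.464 CPM in pDC_TG and 0.802 CPM in pDC_WT (adjusted p = 0.742).

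In the early T lineage list, 13 of 16 genes were tested, 3 were higher, none was lower and 10 did not pass, with a median log2FC of 0.17. Lck, the kinase of the T cell receptor, averaged 66.4 CPM in pDC_TG and 4.12 CPM in pDC_WT (log2FC 4.01, adjusted p = 0.000189). Cd2, an adhesion receptor of T and NK cells, averaged 10.9 CPM in pDC_TG and 0.539 CPM in pDC_WT (log2FC 4.33, adjusted p = 0.00593). Zap70, the kinase that acts after Lck, had 97 counts in pDC_TG and 3 in pDC_WT (0.869 CPM in pDC_TG and 0.0115 CPM in pDC_WT). The Notch receptor gene Notch1 averaged 96.9 CPM in pDC_TG and 133 CPM in pDC_WT (adjusted p = 0.687), and the Notch target Hes1 averaged 2.00 CPM in pDC_TG and 1.12 CPM in pDC_WT (adjusted p = 0.383).

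Of 12 pDC genes of lymphoid type, only Cd8a passed, at 660 CPM in pDC_TG and 267 CPM in pDC_WT (log2FC 1.31, adjusted p = 6.83e-05), and the list median was 0.19. Ly6d, a surface gene of lymphoid progenitors with pDC potential, averaged 4257 CPM in pDC_TG and 2904 CPM in pDC_WT (adjusted p = 0.502). When the pDC libraries were fitted alone, 3 of these 12 genes were higher. Among 13 multipotent and lymphoid progenitor genes, 12 were tested and 2 were higher, with a median of 0.11. Flt3, the receptor that dendritic cell progenitors need, averaged 460 CPM in pDC_TG and 276 CPM in pDC_WT (log2FC 0.74, adjusted p = 1.87e-06). Kit, the stem cell factor receptor, averaged 47.6 CPM in pDC_TG and 32.2 CPM in pDC_WT (log2FC 0.56, adjusted p = 0.0202), and 1 gene of this list instead of 2 was higher without pDC_TG replicate 2, 3 or 4.

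Of the paralogues of the 8 genes, 6 of 10 were tested, 2 were higher and 1 was lower, with a median of 0.68. Tcf7l2, a relative of Tcf7, was lower, at 38.4 CPM in pDC_TG and 94.6 CPM in pDC_WT (log2FC -1.30, adjusted p = 2.54e-07), a direction opposite to that of Tcf7. The higher genes were Poll, given above, and Tcf7l1, whose 15 counts all lay in 1 pDC_TG library. Only 1 paralogue was higher without pDC_TG replicate 1, and none when the pDC libraries were fitted alone. Lef1, the closest relative of Tcf7, averaged 2.09 CPM in pDC_TG and 0.432 CPM in pDC_WT and did not pass (log2FC 2.25, adjusted p = 0.328).

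The plot of gene lists shows called rises in a part of each list. In each of the 7 lists, the genes that did not pass were at least as many as those that did. Of all genes tested, 7.72% were called higher and 7.04% lower, and no test of a whole list was run. The counts of called genes do not separate rises of single genes from a shift of a whole list.

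Markers of other cell types were summed in the same libraries, since several of the genes above are also used by T, B, NK and innate lymphoid cells. The counts of called markers stand beside 7.72% of all genes higher and 7.04% lower in pDC_TG against pDC_WT. The 9 T cell markers measured summed to 20.6 to 33.6 CPM in pDC_TG and 3.72 to 13.1 CPM in pDC_WT, without overlap, and of 6 tested 1 was higher. That one was Cd5, at 21.3 CPM in pDC_TG and 4.58 CPM in pDC_WT. Without Cd5 the sum was 2.46 to 8.36 CPM in pDC_TG and 1.64 to 8.22 CPM in pDC_WT, and the genes of the T cell receptor complex Cd3d, Cd3e and Cd3g together gave 0 to 1.60 CPM in pDC_TG and 0 to 3.02 CPM in pDC_WT. The part of T cell transcripts in the rises of Tcf7 and Lck was not tested.

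The 10 mature B cell markers measured summed to 273 to 325 CPM in pDC_TG and 317 to 417 CPM in pDC_WT, with 1 of 8 tested higher. The higher one was Fcer2a, the gene of the low-affinity IgE receptor CD23, at 7.21 CPM in pDC_TG and 1.14 CPM in pDC_WT (log2FC 2.64, adjusted p = 0.00274). Ms4a1, which encodes the B cell surface protein CD20, averaged 1.91 CPM in pDC_TG and 1.81 CPM in pDC_WT. The 9 NK cell markers summed to 3.68 to 5.13 CPM in pDC_TG and 0.430 to 2.03 CPM in pDC_WT, without overlap, with 1 of 5 tested higher. This was Klre1, at 2.75 CPM in pDC_TG and 1.07 CPM in pDC_WT (adjusted p = 0.0367), a call that was lost without any one of pDC_TG replicates 2, 3 and 4 or of pDC_WT replicates 1, 3, 4 and 5. Prf1, the perforin gene, averaged 1.15 CPM in pDC_TG and 0.136 CPM in pDC_WT, and Gzma averaged 0.334 CPM in pDC_TG and 0.0141 CPM in pDC_WT, and neither passed. Klra8, Gzmb and Klrg1 were at 0 in both pDC groups. Markers of innate lymphoid cells and their progenitors summed to 43.7 to 86.0 CPM in pDC_TG and 47.3 to 74.4 CPM in pDC_WT. Of 6 tested 1 was higher and none was lower. The higher one was Kit, given above, at 47.6 CPM in pDC_TG and 32.2 CPM in pDC_WT (adjusted p = 0.0202). Tox was among the markers at 0 in pDC_TG. Whether B, NK or innate lymphoid cell transcripts have a part in the rises of the members was not tested.

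Plasma cell and cDC1 markers also differed between the pDC groups without overlap of their sums. In CPM, the largest rise was that of Sdc1 among plasma cell markers and that of Cd8a among cDC1 markers. Other markers of each list moved both ways. Cd8a averaged 660 CPM in pDC_TG and 267 CPM in pDC_WT. By their means, the other markers of each list together were not higher in pDC_TG. The 7 plasma cell markers summed to 2103 to 2263 CPM in pDC_TG and 1049 to 1555 CPM in pDC_WT, with 3 of 6 tested higher and 2 lower. Sdc1, the syndecan-1 gene, averaged 1108 CPM in pDC_TG and 51.2 CPM in pDC_WT, and Prdm1, the gene of the transcription factor Blimp-1, averaged 63.9 CPM in pDC_TG and 6.18 CPM in pDC_WT. The third was Irf4, given above. Xbp1, at 456 CPM in pDC_TG and 910 CPM in pDC_WT, and Mzb1, at 40.1 CPM in pDC_TG and 197 CPM in pDC_WT, were lower. The 9 cDC1 markers summed to 678 to 987 CPM in pDC_TG and 453 to 573 CPM in pDC_WT, with 3 higher (Tlr3, Cd8a and Naaa), 3 lower (Clec9a, Cadm1 and Batf3) and 3 that did not pass. The part of these transcripts in the rises of the members was not tested.

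Neutrophil markers stood apart in 1 library: they summed to 0.230, 0.340, 4.59 and 199 CPM in pDC_TG replicates 1 to 4, against 0.195 to 2.62 CPM in pDC_WT. Without replicate 4 the log2FC of pDC_TG versus pDC_WT was 1.28 for Dntt, 4.24 for Tcf7 and 2.52 for Sox4, and all 3 still passed.

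**Figure D3:**
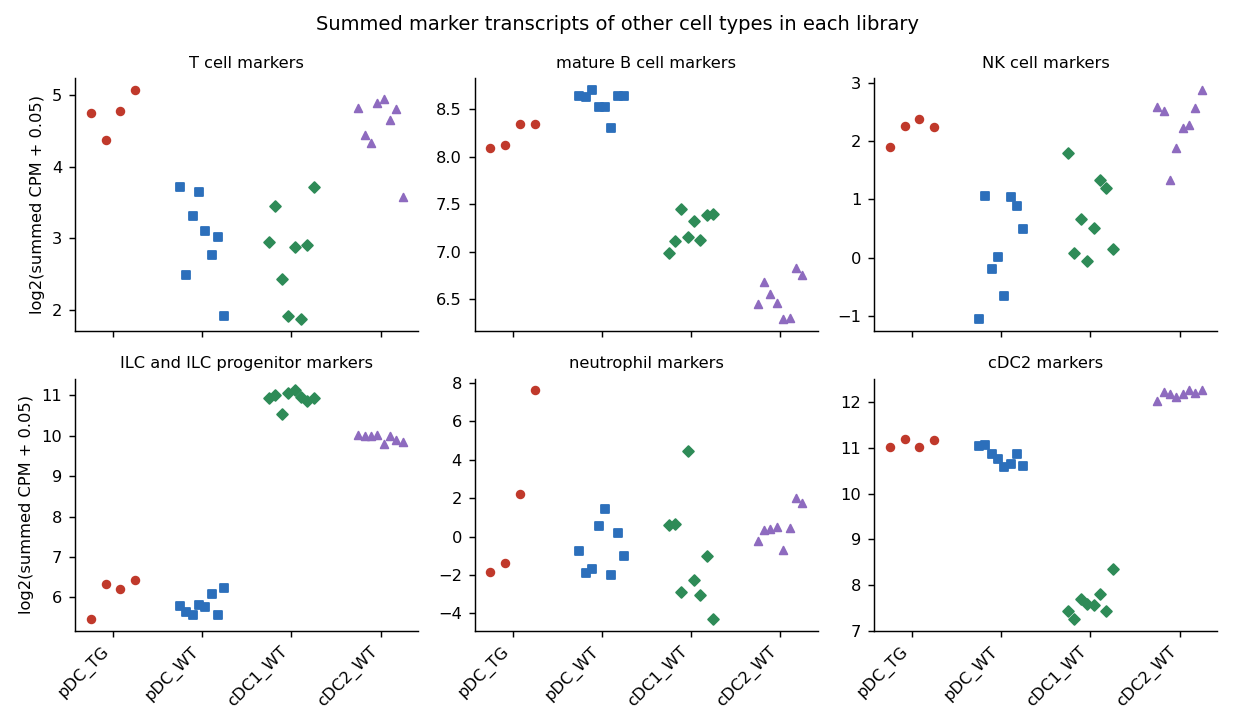
Summed CPM of the markers of 6 cell types in each library as log2 of the sum plus a small constant (y axis, log scale), by group (x axis); each point is a library. T cell and NK cell sums are higher in the 4 pDC_TG libraries than in the 8 pDC_WT libraries. B cell sums, mostly Fcrla and Cd79b in pDC, are not, and 1 pDC_TG library reaches 199 CPM of neutrophil markers.

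The genes whose log2 CPM followed a member most closely over the 28 libraries were listed for the 4 members with a group mean of at least 10 CPM. The libraries fall into 4 groups, so these correlations mostly describe differences between groups and are given without a test. Dntt was followed by Sit1 (Pearson r = 0.998), Tbxa2r (0.998) and Fbxl13 (0.997), which were also at or near 0 in cDC. Fbxl13 averaged 32.0 CPM in pDC_TG and 29.4 CPM in pDC_WT and had no count in either cDC group. Il7r was followed by Tsc22d1 (0.972), Snx18 (0.972) and Notch3 (0.968). Tcf7 was followed by Limd2 (0.956), Ms4a6b (0.942) and Arl4c (0.938). Like Tcf7, these 3 were highest in cDC2_WT and lowest in pDC_WT, with Ms4a6b at 77.4 CPM in pDC_TG, 6.45 CPM in pDC_WT, 27.4 CPM in cDC1_WT and 306 CPM in cDC2_WT. Sox4 was followed by Cerk (0.939), Rhoh (0.938) and Elf1 (0.935), with Rhoh at 140 CPM in pDC_TG, 93.7 CPM in pDC_WT, 15.7 CPM in cDC1_WT and 52.3 CPM in cDC2_WT.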

How the data were processed

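Bulk RNA-seq was made from 4 ng of RNA per sample with an amplification kit that does not mark strand, and sequenced as single 75 base reads, per the labels' protocols. The submitters' processing notes name TopHat2 2.1.0, Trimmomatic 0.35, SAMtools 0.1.18, FastQC 0.11.4 and genome build mm10. Which tool counted the reads, and on which annotation, is not given in the sources used here. Values deposited by the authors are raw counts in whole numbers for each gene. The 5 summary lines of each file stayed out of every total and test. Of the gene, no-feature and ambiguous counts, reads outside genes were 8.23% to 18.7% and ambiguous reads 1.04% to 1.57%.

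Here, counts of all 28 libraries were fitted together using edgeR 4.0.16 (R 4.3.3; TMM scaling, filterByExpr by group, robust quasi-likelihood fit, two-sided quasi-likelihood tests of 6 comparisons). Adjusted p is Benjamini-Hochberg over the 13159 genes tested, with a threshold of 0.05. CPM is TMM-scaled, and bounds are taken over a floor of 3 counts per group. Replicates are numbered mice in the labels, so p-values measure the spread between these samples, which includes handling. No 2 libraries of a group agreed within sampling noise. The members and gene lists were chosen with earlier results of these data known. From each list the 4 or fewer genes of lowest adjusted p are named, with the 3 genes most like each member; other list genes were named after their values were seen, and a few list genes are not reported here. Positions and exon lengths are from GENCODE on GRCm38, and promoters from RefSeq. The fit was tested on simulated data. Alternatives were DESeq2 1.42.0, other scalings and filters, a 1.5-fold threshold, subsets of libraries and a replicate block.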

Additional observations from a re-analysis of the deposited data

Results flagged for a closer look

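Each of the 8 genes was examined in each of the 4 groups for a library far from the others, 32 sets in all, of which chance flags about 1 in 20. The highest library stood far from the rest in 5 sets. Sox4 in cDC1_WT replicate 6 was at 7.98 CPM (220 counts), where the nearest cDC1_WT library was at 3.44 CPM. The other 4 sets rest on few counts. Rag2 in pDC_TG replicate 2 was at 0.832 CPM (22 counts), with the other 3 libraries at 0. Rag2 in pDC_WT replicate 2 was at 0.107 CPM (3 counts), where the nearest was at 0.0391 CPM. Ebf1 in pDC_WT replicate 8 was at 0.526 CPM (14 counts), where the nearest was at 0.215 CPM. Dntt in cDC2_WT replicate 8 was at 0.0409 CPM (1 count), with the other 7 libraries at 0.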

How the results depend on the processing

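Dntt, Tcf7 and Sox4 were called higher in pDC_TG than in pDC_WT under each of the 22 alternatives run, with log2FC of 1.12 to 1.40 for Dntt, 4.21 to 4.54 for Tcf7 and 2.44 to 2.64 for Sox4. Of 276 counts of members called under alternatives, 274 were within 1.5 times the count reported. The others came from fits of only the groups compared, in which 4 members instead of 7 were higher in pDC_TG than in cDC1_WT and 3 instead of 5 than in cDC2_WT, because low members failed that filter. Directions turned in low members that were not called: Rag1 in pDC_TG versus pDC_WT (-0.35 to 1.01 with 1 library left out), Ebf1 in pDC_TG versus cDC2_WT (-0.27 to 1.28 with 1 library left out, -0.59 with WT replicates 5 to 8 alone) and Ptcra in cDC1_WT versus cDC2_WT (0.19 with WT replicates 5 to 8 alone). The cause was not tested.

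Ebf1 in pDC_TG versus cDC1_WT did not pass with WT replicates 5 to 8 alone (adjusted p = 0.143), and Ptcra in pDC_TG versus cDC2_WT did not with WT replicates 1 to 4 alone (adjusted p = 0.0600). Il7r in cDC1_WT versus cDC2_WT passed with WT replicates 1 to 4 alone (adjusted p = 0.0228) and without cDC1_WT replicate 5 (adjusted p = 0.0199). Same-numbered libraries deviated together weakly at most (r of -0.0269 to 0.108 in 36 pairs), although libraries correlated best with their own number in 15, 14 and 13 of 16 cases between the WT groups, against 3, 2 and 1 of 8 between pDC_TG and cDC1_WT, cDC2_WT and pDC_WT, a hint from the data and not from the design. With the replicate block, Ebf1 passed in pDC_TG versus pDC_WT (log2FC 4.02, adjusted p = 0.0446; 4 members higher), Sox4 in pDC_WT versus cDC2_WT (adjusted p = 0.0356; 5 higher) and Il7r in cDC1_WT versus cDC2_WT (adjusted p = 0.0497; 4 lower). For pDC_TG this block joins mice of different genotypes under the same number. Its Ebf1 result thus rests on a pairing that the labels do not give. Over all genes, pDC_TG versus pDC_WT gave 1016 higher and 927 lower, 1053 and 989 with the block, and 337 and 194 against a 1.5-fold change. Low counts limit Rag1, Rag2, Ptcra and Ebf1.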
